A study of Physcomitrium patens with 6 samples.

Results

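The genes described here are transcripts of moss protonema that lost most of their level within 30 minutes of abscisic acid (ABA) and lay near the lower level at 60 minutes. They were chosen from the measured values themselves: a mean read count relative to library size (CPM) of 5 to below 100 at 0 minutes, a 30/0 ratio of at most 0.4, a 60/30 ratio from 0.75 to about 1.3, and both libraries of each treated time below both 0 minute libraries. This rule found 98 gene IDs among 18949 genes tested, out of 32926 IDs in the deposited count tables. Protonema of Physcomitrium patens, the filamentous juvenile tissue of the moss, was grown in shaken liquid culture and collected without ABA or after 30 or 60 minutes in it; each time has 2 biological replicates, which makes 6 mRNA libraries. The labels name no genotype, strain or allele. The series design gives the ABA concentration as 10 µM and the treatment protocol as 10 mM, and control cultures received the same volume of methanol, the carrier. The sources used here do not say how long the 0 minute cultures had been in methanol, so ABA and time after an addition cannot be told apart.

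ABA is the plant hormone of drought and osmotic stress, and in mosses it makes protonema tolerant of drying and freezing. It binds receptors of the PYR/PYL/RCAR family, which then block PP2C phosphatases and so release SnRK2 kinases that act on transcription factors. An mRNA level reflects both how fast the transcript is made and how fast it is degraded, and it can fall no faster than the existing molecules are lost. Transcripts that drop soon after a hormone is added are therefore, as general background, ones whose existing molecules were lost quickly after the addition. Their lifetime before it can differ, and lifetimes were not measured here. None of the 32926 IDs matched the RefSeq gene table used here, so members carry no gene name, description or function, and the labelled tissue could not be checked against marker genes. Only 2 members are printed by ID, and the others are given by their place in an order.

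Library totals ran from 12450250 to 17822775 gene counts. TMM factors, which correct for the make-up of each library, were 1.13 and 1.18 for the 0 minute libraries, 1.04 and 1.05 for the 30 minute libraries and 0.793 and 0.875 for the 60 minute libraries. The factors fell with time, so statements about a level that held between 30 and 60 minutes are relative to this scaling. All 98 members passed the filter on low counts, which their 0 minute libraries alone were enough to meet.

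Members together lost most of their reads in the first interval, and their summed CPM changed little in the next. Both follow from the limits of the rule. Their summed CPM was 1867 and 1888 in the 0 minute libraries, 558.3 and 531.1 in the 30 minute libraries, and 616.1 and 498.0 in the 60 minute libraries. As a share of each library's gene counts, which needs no TMM factor, they held 0.216% ± 0.00474 (SD, n = 2) before ABA, 0.0568% ± 0.00179 (SD, n = 2) after 30 minutes and 0.0467% ± 0.0102 (SD, n = 2) after 60 minutes. By this share both 60 minute libraries, 0.0539% and 0.0395%, lay below both 30 minute libraries, 0.0581% and 0.0556%. The treated libraries lay far below both 0 minute libraries on either scale, and the spread at 60 minutes was the widest of the 3 times. In bulk libraries such as these, fewer cells of a type and less RNA per cell cannot be told apart.

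**Figure D1:**
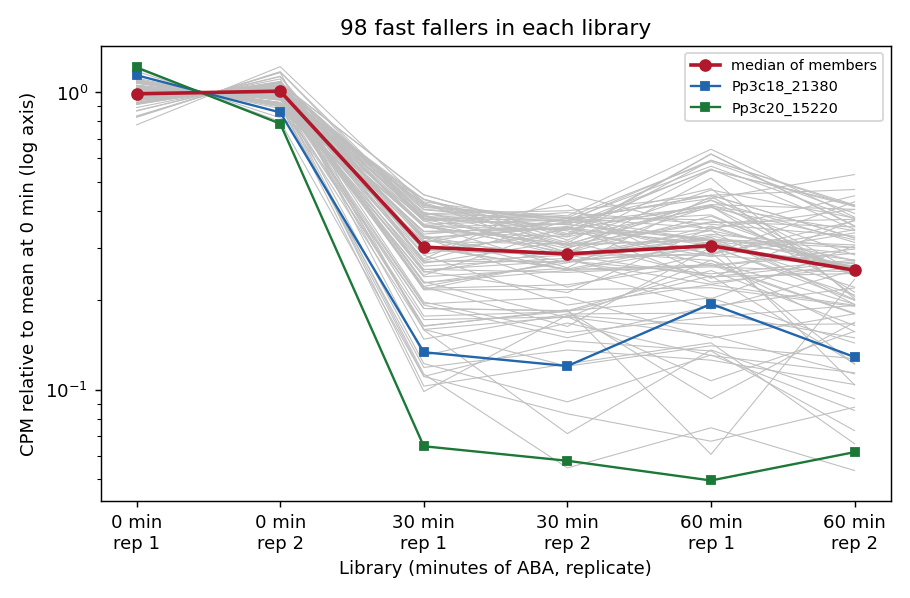
CPM of each of the 98 members in the 6 libraries, divided by its mean at 0 minutes (log axis). Grey lines join the values of 1 gene, red points are the median over members, and blue and green mark the members with the highest 0 minute level and the lowest 30/0 ratio. Every line drops between the 0 and the 30 minute libraries, which the rule required, and the median is lower in replicate 2 than in replicate 1 at 60 minutes.

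Over members the median level was 14.9 CPM at 0 minutes, 4.23 CPM at 30 minutes and 3.98 CPM at 60 minutes. CPM is not divided by transcript length, so these levels rank genes by reads and not by transcript number. The 0 minute means ranged from 5.15 to 61.2 CPM, and no member came near the upper limit of 100. Of the members, 31 lay from 5 to below 10 CPM, 33 from 10 to below 20, 24 from 20 to below 40 and 10 at 40 or above. These made up 0.977%, 0.764%, 0.696% and 0.461% of all tested genes in the same ranges.

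Pp3c18_21380 had the highest level of the members at 0 minutes. It had 70.0 and 52.5 CPM in the 0 minute libraries, 8.20 and 7.37 CPM at 30 minutes, and 11.9 and 7.90 CPM at 60 minutes. Both 0 minute libraries stood well above all treated ones, and replicate 1 at 60 minutes was the highest of the 4 treated libraries. From a mean of 61.2 ± 12.4 CPM (SD, n = 2) the level dropped to 7.79 ± 0.586 CPM (SD, n = 2) by 30 minutes, which is 7.87-fold lower. By 60 minutes it stood at 9.91 ± 2.85 CPM (SD, n = 2). The fitted log2 fold change in edgeR was -2.97 (SE 0.20) at 30 minutes and 0.34 (SE 0.22) from 30 to 60 minutes. Without replicate 2 at 60 minutes the latter was 0.60 and passed the adjusted threshold of 0.05, and without replicate 1 it was 0.02. With 1 library left at 60 minutes, the fit assumes that it varies like the libraries of the other times.

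Pp3c20_15220 had the lowest 30/0 ratio, 0.0612. Its 0 minute libraries held 473 and 270 reads, its 30 minute libraries 22 and 14, and its 60 minute libraries 13 and 16. In CPM the libraries read 22.6 and 14.6, then 1.20 and 1.07, then 0.923 and 1.149. The groups at 0 and 30 minutes were far apart, while the values at 30 and 60 minutes overlapped. The 30 minute level was 16.3-fold lower than at 0 minutes, with a fitted log2 fold change of -4.01 (SE 0.27). With so few reads left, the exact 95% counting interval of its 60/30 ratio ran from 0.533 to 1.51, so a further fall or a partial recovery of moderate size was not detectable at this depth. Counting intervals given here cover counting error only.

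The other members with deep losses started from different read levels. The next lowest 30/0 ratio, 0.0839, belonged to a transcript with 30.5 and 28.5 CPM at 0 minutes, 3.33 and 1.61 CPM at 30 minutes and 2.20 and 1.58 CPM at 60 minutes. The one after it, with a ratio of 0.0970, went from 8.88 and 5.90 CPM to 0.820 and 0.614 CPM and then to 0.497 and 0.647 CPM. These 3 were the members at or below 0.1. In all, 24 members were at or below 0.2 at 30 minutes, 24 lay above 0.2 and up to 0.3, and 50 lay above 0.3. The members thus crowd towards the limit of 0.4.

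Across the 98 members the 30/0 ratio had a median of 0.304 and quartiles of 0.207 and 0.362, a median loss of 69.6%. The median differed little with the libraries compared, from 0.280 to 0.310 over the 4 pairings of single 30 and 0 minute libraries. The highest treated library of a member stood at a median of 0.361 times its lowest 0 minute library. The narrowest gap was 0.719, in a transcript with 11.3 and 7.90 CPM at 0 minutes, 4.21 and 3.15 CPM at 30 minutes and 5.68 and 4.02 CPM at 60 minutes. Counting error alone left the 30/0 ratio open near the limit: the exact 95% interval lay wholly at or below 0.4 for 61 of the 98.

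Several of the members with most reads were not separate measurements. The members next below Pp3c18_21380 in 0 minute level, 2 IDs, had identical counts in every library. Each had 1169 and 1073 reads before ABA, 394 and 275 after 30 minutes and 362 and 257 after 60 minutes. Their IDs carry the same prefix and differ by 5 in number. In a further pair the first ID had 684 and 700 reads before ABA, 292 and 154 after 30 minutes and 309 and 175 after 60 minutes, and the other ID 684 and 699, 292 and 152, and 308 and 174. With a tolerance of 10% on the summed difference in counts, 6 such pairs of neighbouring IDs were found, and both IDs were members in each. Of the members, 12 (12.2%) were in such a pair, against 1180 (6.23%) of all tested genes. Among genes of this range that fell as far by 30 minutes, it was 19 of 176 with a 60/30 ratio below 0.75. Above the upper 60/30 limit it was 1 of 61. The row for ambiguous reads was 0 in every count table. Reads shared by overlapping or near-identical genes therefore cannot be assigned to either ID, and the 98 IDs stand for at most 92 separate read sets at this tolerance. With each pair counted once, the median 30/0 ratio was 0.299 and the median 60/30 ratio 0.989.

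The 60/30 ratio, which the rule confined to 0.75 to about 1.3, had a median of 0.997 over members. It was above 1 for 48 members and below 1 for 50. Set against 0 minutes, the 60 minute level had a median ratio of 0.283. It was still at or below 0.4 for 84 members, and the highest value was 0.513. The member with the highest 60/30 ratio, 1.32, went from 5.30 and 5.03 CPM to a mean of 0.996 CPM at 30 minutes and then to 1.56 and 1.08 CPM. The member with the lowest, 0.7502, had 10.2 and 13.3 CPM at 0 minutes, 3.55 and 2.99 CPM at 30 minutes, and 3.69 and 1.22 CPM at 60 minutes. In this last transcript the 60 minute replicates disagree: replicate 1 lay at the 30 minute level and replicate 2 well below it.

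That disagreement ran through the members. At 60 minutes replicate 1 was above replicate 2 in 70 of 98 (71.4%), with a median difference of 0.29 on the log2(CPM + 0.5) scale, against 51.2% and 0.01 for the 13110 tested genes in the same range of 0 minute level. The other genes that fell to at most 0.4 by 30 minutes also read higher in replicate 1: 63.6% of those that fell on afterwards, with a median of 0.16, and 83.6% of those that came back, with a median of 0.38. At 0 and 30 minutes the medians of the members were -0.03 and 0.03. Read against the 30 minute mean, the median 60/30 ratio of members was 1.09 in replicate 1 and 0.903 in replicate 2. In replicate 1, 73 members lay within the window, 18 above it and 7 below it. In replicate 2, 75 lay within, 3 above and 20 below. Both 60 minute libraries lay within the window for 53 of the 98. For 3 members the 2 libraries lay beyond opposite sides of it.

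The precision of the 60/30 ratio depended on the reads left at 30 minutes. Among the 31 members from 5 to below 10 CPM at 0 minutes, with a median of 53 reads over both 30 minute libraries, the median bounds of the exact 95% counting interval were 0.604 and 1.49. Among the 10 members at 40 CPM or above, with a median of 483.5 reads, they were 0.923 and 1.18. The counting interval lay inside the window for 19 of the 98 members and excluded 1 for 17. With the spread between replicates included, the 95% interval of the edgeR fit lay inside the window for 3. For most members the word settled thus describes the mean of 2 libraries, and a constant level was not shown.

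**Figure D2:**
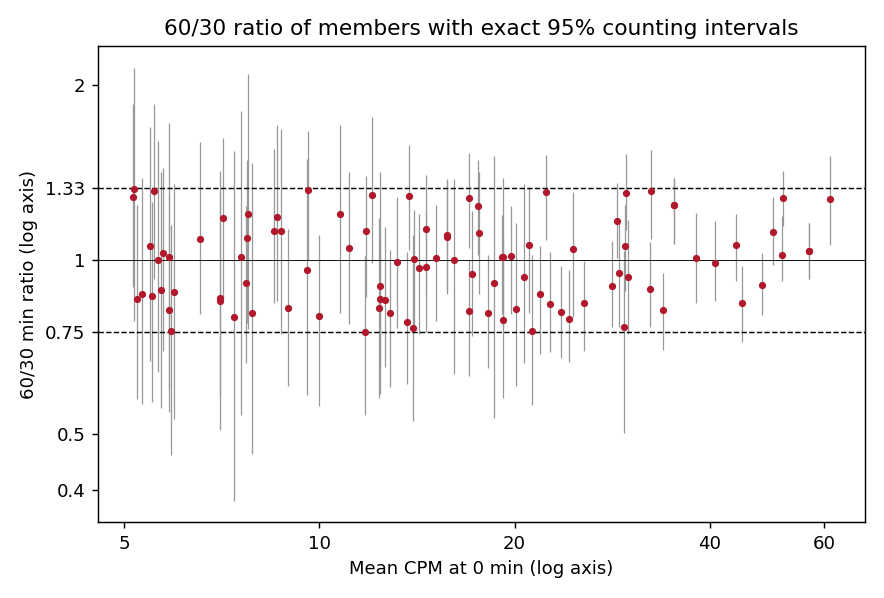
The 60/30 minute ratio of each member against its mean CPM at 0 minutes (both log axes). Points are ratios of mean CPM, bars are exact 95% counting intervals from summed reads, and dashed lines mark the window from 0.75 to about 1.3. The bars narrow with level, and 19 of 98 lie wholly between the dashed lines.

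The quasi-likelihood test of edgeR was run over all 18949 genes in a model of the 3 times. At an adjusted p below 0.05, 98 of 98 members were called lower at 30 than at 0 minutes, against 16.8% of all tested genes. At 60 against 0 minutes 98 of 98 were called lower, against 29.5%. Both libraries of each treated time lay below both 0 minute libraries for 28.3% of all tested genes. The rule used all 3 contrasts, so these counts and the next are a description only; few calls between 30 and 60 minutes follow from the window on the 60/30 ratio. Between 30 and 60 minutes 0 members were called, against 36.0% of all genes, and 1 member had an unadjusted p below 0.05, against 46.0%. DESeq2 also called 0 members, against 28.7% of all genes. The lowest adjusted p among members in edgeR was 0.0529, for the member with most reads at 0 minutes below that identical pair, which had 50.9 and 52.7 CPM at 0 minutes, 19.8 and 19.6 CPM at 30 minutes and 22.8 and 27.4 CPM at 60 minutes. Its 60 minute libraries both lay above its 30 minute libraries. Without replicate 1 or replicate 2 at 60 minutes, 8 or 12 members were called between 30 and 60 minutes, against 42.67% or 35.15% of all tested genes. The single 60 minute library is again assumed there to vary like those of the other times.

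The members were then set beside the other genes that fell as far. Of 335 genes at 5 to below 100 CPM with a 30/0 ratio of at most 0.4, 98 (29.3%) were in the window at 60 minutes, 176 (52.5%) fell on below it and 61 (18.2%) came back above the window. All 98 in the window also met the condition on non-overlapping libraries. The 3 groups started from similar levels, with medians of 14.9, 14.7 and 13.1 CPM at 0 minutes. At 30 minutes the members and the genes that fell on also had similar medians, 4.23 and 4.30 CPM, while at 60 minutes the genes that fell on had 1.80 CPM. Genes that came back had a median of 2.66 CPM at 30 minutes and 5.32 CPM at 60 minutes. The 30 minute libraries enter both ratios, so a gene read too low at 30 minutes is moved towards the group that came back.

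**Figure D3:**
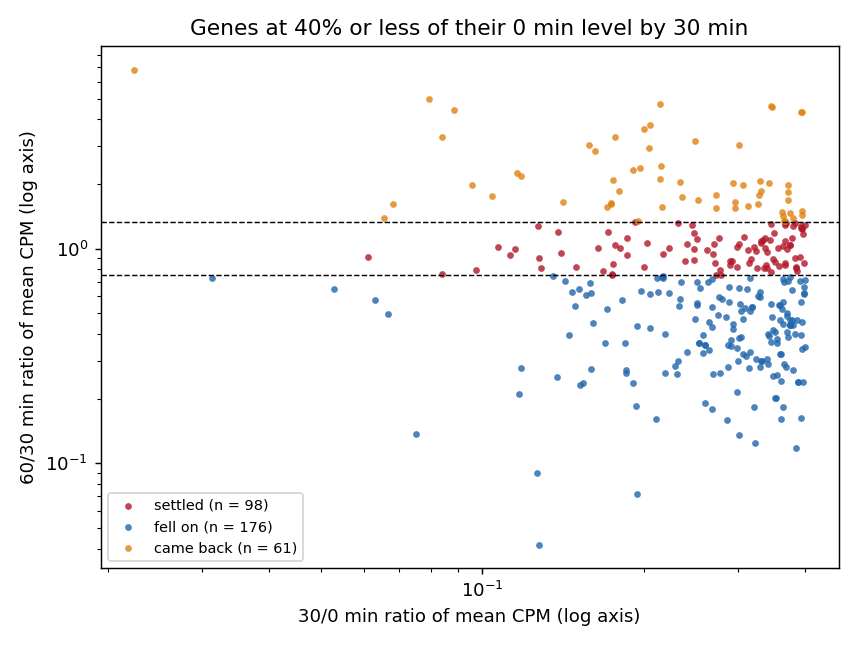
The 60/30 minute ratio against the 30/0 minute ratio of mean CPM (both log axes) for 335 genes at 5 to below 100 CPM that were at or below 0.4 at 30 minutes. Colours mark the 98 settled genes, the 176 that fell on and the 61 that came back, with the window from 0.75 to about 1.3 as dashed lines. The settled genes form a band with no gap to those that fell on.

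No gap in the 60/30 ratio set the members apart from these genes. Per bin of the 60/30 ratio, 23 fallers lay from 0.65 to below 0.75, just under the window, and 24 lay from 0.75 to below 0.85, just inside it. The fullest bin was from 0.25 to below 0.5, with 85, but it is wider than the bins just named. Its count thus does not show where fallers were densest. All tested genes of the same 0 minute range were spread differently: 61.1% lay in the window, against 29.3% of the fallers.

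**Figure D4:**
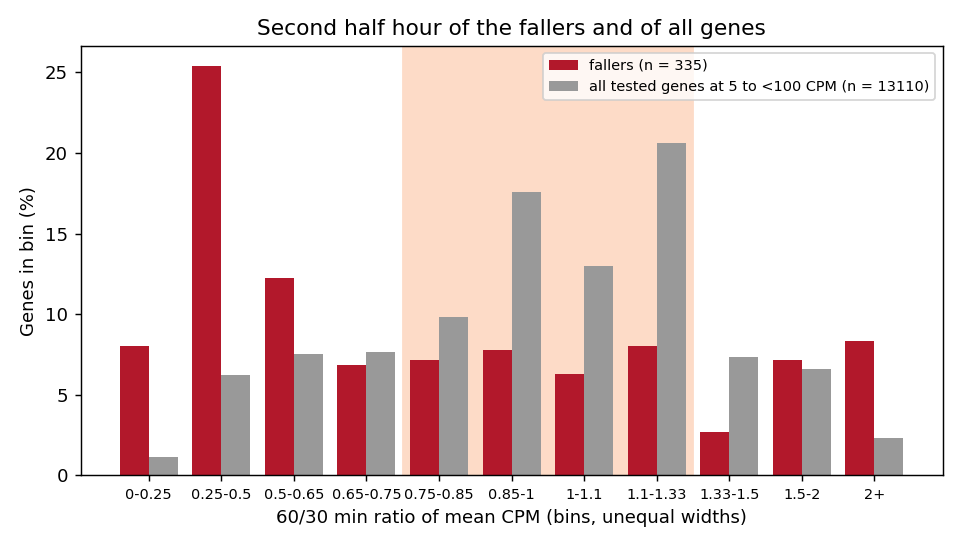
Share of genes (%) in bins of the 60/30 minute ratio, with bins of unequal width, for the 335 fallers and for all 13110 tested genes at 5 to below 100 CPM at 0 minutes. The shaded bins are the window of the rule. The fallers' fullest bin, from 0.25 to below 0.5, holds 25.4% of them, and the shaded bins hold 29.3% of them against 61.1% of all genes.

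Genes close to a limit had values like those of members. At the 30/0 limit the nearest member had a ratio of 0.399 and the nearest gene outside had 0.401. At the lower 60/30 limit they were 0.7502 and 0.745, and at the upper limit 1.32 and 1.34. The member with the lowest 0 minute level had 5.15 CPM, and the nearest gene below the limit had 4.96 CPM, 0.849 CPM at 30 minutes and 0.966 CPM at 60 minutes. Above the upper limit of 100 CPM, 5 genes met the other conditions, and below 5 CPM 86 tested genes did. With a 30/0 limit of 0.3 the rule found 48 genes and with 0.5 it found 178. With upper-quartile factors in place of TMM it found 160, of which 88 were among the 98. With total counts alone it found 105, of which 58 were among the 98. Total counts moved the median 60/30 ratio of the members to 0.797, and the median log2 60/30 ratio of all tested genes from 0.01 to -0.31. The median log2 30/0 ratio of all tested genes was -0.02 with TMM, -0.16 with total counts and -0.26 with upper-quartile factors, which lets more genes pass the 30/0 limit.

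The rule was also applied to the libraries of a single replicate number, so that the libraries of the other number could be read without having chosen the genes. Chosen from replicate 1, 89 genes had a median 30/0 ratio of 0.298 there and 0.292 in replicate 2. Of these, 72 (80.9%) were at or below 0.4 in the held-out libraries, against 3.28% of tested genes at 5 to below 100 CPM. Chosen from replicate 2, 127 genes had a median of 0.320 there and 0.378 in replicate 1. Of these, 70 (55.1%) were at or below 0.4 in the held-out libraries, against 2.58%. All 89 and all 127 had a held-out ratio below 1. Over all 6 libraries the median log2 30/0 ratio of all tested genes was -0.02, so a ratio below 1 is common. The fall by 30 minutes was thus seen again in libraries not used to pick these genes. The share at the limit was lower when replicate 1 was held out. The limits themselves were set with earlier results of these data known, so the held-out libraries are not fully independent of the rule.

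In the held-out libraries, a 60/30 ratio in the window was no more common among the chosen genes than among all tested genes in range. In the held-out libraries the 60/30 ratio lay in the window for 47 of 89 genes (52.8%) and 68 of 127 (53.5%). This compares with 56.9% and 61.0% of all tested genes at 5 to below 100 CPM in those libraries. Of the genes that fell to at most 0.4 there, which can include chosen ones, 29.9% and 26.1% lay in the window. The like counts for chosen genes at or below 0.4 there are 43 of 72 and 43 of 70. Read in replicate 2, 35 of the 89 fell on and 7 came back. Read in replicate 1, 18 of the 127 fell on and 41 came back. Genes that left the window were thus mostly below it in replicate 2 and mostly above it in replicate 1; the chosen genes and the libraries of all 3 times differ between these readings, and their parts cannot be told apart. Both conditions held in the held-out libraries for 43 of 89 and for 43 of 127. Chosen separately from each replicate, 42 genes met the rule both times, and all 42 were among the 98. A gene that meets the limits in each replicate nearly always meets them on the mean, so this overlap follows largely from the rule.

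**Figure D5:**
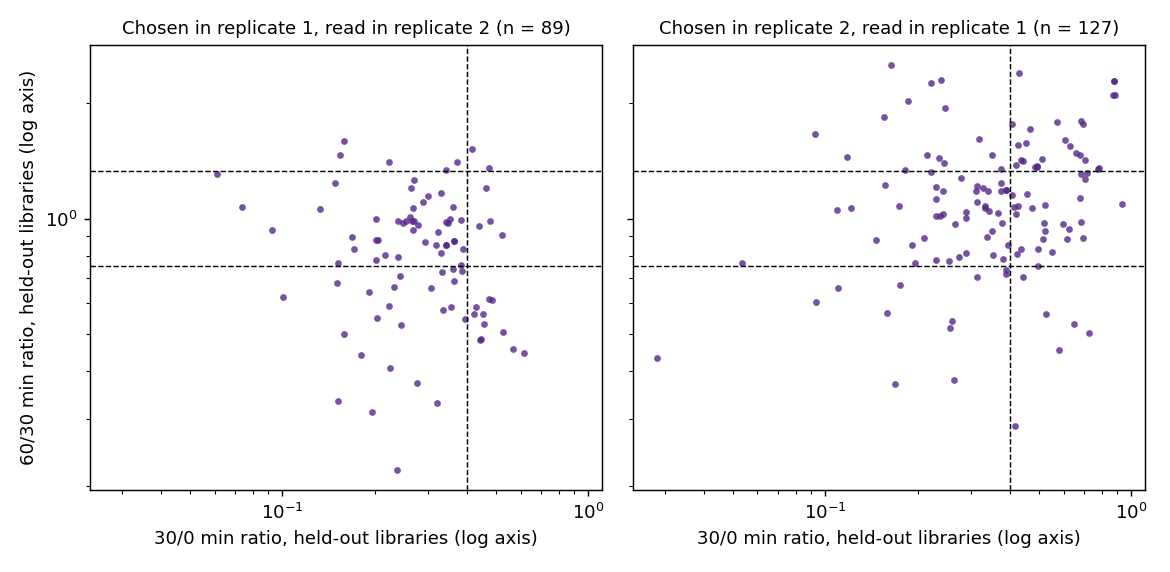
Held-out 60/30 minute ratio against held-out 30/0 minute ratio (both log axes) for genes chosen by the rule in the libraries of the other replicate number. Dashed lines mark the limits of the rule, and the left panel shows 89 genes read in replicate 2 and the right panel 127 read in replicate 1. Points spread below the window on the left and above it on the right.

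The IDs of the members, which the rule did not use, were spread over the numbered prefixes. Members occurred under 26 of the 27 prefixes that begin with Pp3c, and none was among the 79 tested genes with a Pp3s prefix, which are 0.417% of the genes tested. The highest share, picked after seeing all of them, was that of Pp3c19, with 8 of 577 tested genes or 13.9 per 1000, against 5.17 per 1000 over all genes; 2 of its 8 are a pair with near-equal counts. Of the members, 14 (14.3%) stood next to another member in the order of all IDs. The shares were 11.4% for the genes that fell on and 9.84% for those that came back, each next to another of their own group. In the order of tested genes alone the shares were 14.3%, 16.5% and 13.1%, so the members were not set apart. Near-equal pairs were not taken out of the other groups. Of the 14 members, 12 were in the pairs with near-equal counts, and with each pair counted once 2 remained. Those 2 were next to each other and had unequal counts. Of the 85 tested genes that stood next to a member without being one, 10 (11.8%) were called lower at 30 minutes and 15 (17.6%) higher, against 16.8% and 19.6% of all tested genes. Their median log2 fold change was 0.01, and that of all tested genes -0.02.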

How the data were processed

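Read counts per gene, 1 table for each library, were deposited by the authors; they are whole numbers and were used as raw counts. Per the submitters' processing notes the tools were DESeq2, HTSeq, TopHat and cutadapt, with no version or role. No source used here gives the genome build, annotation or strand setting. The 5 summary rows were left out of totals and tests; reads in no gene took 1.66% to 2.14% of counts. Genes were kept by filterByExpr (minimum count 10, minimum total 15). CPM was the count divided by gene total and TMM factor. Contrasts were tested with edgeR 4.0.16 in R 4.3.3 (glmQLFit, glmQLFTest, all 6 libraries, 3 groups, Benjamini-Hochberg over 18949 genes, called below 0.05). The code was run on simulated counts with few changed genes, balanced in direction. Many more genes were called in these data, so that run does not measure error rates here. DESeq2 1.42.0 was an alternative. The SE of a log2 fold change is its size over the square root of F. Members, limits and comparisons were chosen with earlier results of these data known; neighbours of members and near-equal pairs were examined after values were seen. With no gene names, the rule for printed IDs took the member with the highest 0 minute level and that with the lowest 30/0 ratio. Alternatives were other scalings, filters and limits, and leaving out each library.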

Additional observations from a re-analysis of the deposited data

How the results depend on the processing

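Of 88 recomputed summary values 75 stayed within 1.5 times the reported count or within the spread of the reported median. This tally includes values that could hardly move. Calls of members as lower at 30 and 60 minutes follow largely from the rule. A share of TMM-scaled CPM within a library equals the share of counts. With total counts alone the median 30/0 ratio was 0.276, the median 60/30 ratio 0.797 and the number of members called between 30 and 60 minutes 11, against 42.1% of all tested genes. Upper-quartile factors gave 160 genes and a median 30/0 ratio of 0.256. The rule found 48 genes at a 30/0 limit of 0.3 and 178 at 0.5. DESeq2's size factors gave 1 member called between 30 and 60 minutes (all genes 36.4%). Replicate numbers were not taken as pairs, since the labels give none. The correlations of replicate differences across genes were -0.06 (0 and 30 minutes), 0.02 (0 and 60) and 0.26 (30 and 60). The last value means that replicates at 30 and 60 minutes shared some of their differences. With the replicate block 1 member was called between 30 and 60 minutes (all genes 39.6%, and 36.0% without the block). In that fit 98 were lower at 30 (18.9%) and 98 at 60 minutes (30.9%). Leaving out 1 library gave 90 to 116 genes, of which 70 to 90 were among the 98, a median 30/0 ratio of 0.287 to 0.313, a median 60/30 ratio of 0.906 to 1.09, and 0 to 12 members called between 30 and 60 minutes (all genes 18.7% to 42.7%). Counting near-equal neighbours once left 2 members next to another. Depth limited the 60/30 ratio most at low level, where the smallest member count in a library was 6. The causes of these shifts were not tested.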
